A study of Mus musculus with 12 samples.

Results

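A set of 10 genes that handle iron in the liver was followed in this RNA-seq series of mouse whole liver, and all 10 were found among the 35275 genes of the expression table. They were chosen by symbol for their place in the hepcidin and iron pathway, with earlier results of these data known. The genes were Hamp, Hamp2, Bmp6, Tfr2, Tfrc, Trf, Slc40a1, Fth1, Ftl1 and Alas1. The 4 groups held 3 mice each: WT mice on chow, Pctp-/- mice on chow, WT mice on a diet lacking methionine and choline (MCD diet), and Pctp-/- mice on the MCD diet. The mice were male, and the Pctp-/- mice lacked phosphatidylcholine transfer protein (PC-TP), a soluble carrier of phosphatidylcholine, in the whole body and not in hepatocytes alone. The age of the mice and the length of the MCD feeding are not given in the sources used here. The series asks how the loss of PC-TP changes the liver transcriptome on each diet, and here that question is put to the iron genes.

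Iron leaves cells through ferroportin, and the liver hormone hepcidin closes that exit by sending ferroportin to be degraded. Hepatocytes set hepcidin transcription from 2 main signals, bone morphogenetic proteins (BMP) acting through SMAD factors when iron is plentiful and interleukin-6 acting through STAT3 in inflammation. Within cells, iron regulatory proteins bind iron responsive elements in mRNAs and thereby set ferritin translation and the stability of the transferrin receptor mRNA. The mRNA levels given below therefore stand for only part of the control of ferritin and ferroportin.

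Hamp encodes hepcidin and lies on chromosome 7 (GRCm38, chr7:30942368-30944032, minus strand). Its neighbour Hamp2 (chr7:30922372-30924681, minus strand) is a further hepcidin gene of the mouse, whose peptide is not known to act on ferroportin. The longest coding transcripts of the pair were 88.8% identical, yet they shared no stretch of 100 bases with each other or with any other annotated transcript, so that reads of 150 bases could tell them apart. Both lie opposite the annotated gene Gm44662, and whether the reads were counted by strand is not given in the sources used here. The 150 bases before each start (RefSeq, GRCm38.p6, minus strand) are shown because the BMP and STAT3 signals to Hamp are known to act close to its start. GENCODE also annotates a longer Hamp2 transcript, whose first exon sets the end of the gene given above, and the Hamp2 stretch lies wholly in an intron of that transcript. The capitals mark matches to GGCGCC, the letters of the BMP responsive element, and to TTCNNNGAA, the letters of a STAT site.
Hamp, chr7:30944030-30944179: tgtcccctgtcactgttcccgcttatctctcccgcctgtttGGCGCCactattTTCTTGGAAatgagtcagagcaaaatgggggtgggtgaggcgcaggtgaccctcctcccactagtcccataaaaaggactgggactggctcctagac
Hamp2, chr7:30924182-30924331: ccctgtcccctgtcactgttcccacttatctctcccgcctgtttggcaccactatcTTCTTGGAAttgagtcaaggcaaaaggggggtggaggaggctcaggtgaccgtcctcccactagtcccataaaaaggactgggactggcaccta

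Over 153 aligned columns these stretches were 88.2% identical. Hamp held GGCGCC at -109 to -104 and TTCTTGGAA at -97 to -89 from the start, with no overlap between the matches. Hamp2 held TTCTTGGAA at -94 to -86 and no GGCGCC, the aligned element carrying the change G4A, counted from 1 at its 5′ end with the base of Hamp first. Both motifs and TGACNNNGC, the letters of an antioxidant response element, were searched on both strands in the 250 bases before the start. GGCGCC was in 9.59% of 32851 such mouse windows, TTCNNNGAA in 7.02% and TGACNNNGC in 10.2%. Windows were held for 8 of the 10 genes, all but Trf and Slc40a1. Among the other members Tfrc held GGCGCC at -89 to -84, Alas1 held TTCGTAGAA at -171 to -163 and Bmp6 held TGACCGTGC at -108 to -100. A match describes the letters of the window and not binding of a factor.

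Some properties of the libraries bear on every value. Expression was deposited as FPKM (fragment counts scaled to transcript length and library size), and 30486576 to 55179468 reads per library were uniquely mapped. The chow and MCD libraries differed in base error rate (0.03% against 0.01%) and in uniquely mapped reads (77.6% to 79.4% against 85.7% to 87.5%), so that diet and sequencing set cannot be told apart. Pctp lay between 1.21 and 7.90 FPKM in the 6 WT libraries and between 0.156 and 0.566 FPKM in the 6 Pctp-/- libraries, as labelled. The 8 hepatocyte markers summed to 42514 to 47307 FPKM in WT chow and 45904 to 48212 FPKM in Pctp-/- chow mice. On MCD the sums were 54561 to 61391 FPKM in WT and 69272 to 75291 FPKM in Pctp-/- mice. Of these 8 markers, 2 were higher and 4 lower on MCD in each genotype (limma adjusted p under 0.05). The part of the markers in the members' differences was not tested. WT MCD replicate 1 stood apart from the other WT MCD libraries, with 277 against 70.9 and 69.9 FPKM of Lcn2 and 43.1 against 16.5 and 17.9 FPKM of Cd68, and values without it stand beside the counts of members and beside Lcn2 and Orm2. In whole liver, fewer cells of a type and less RNA per cell cannot be told apart.

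Most of the 10 iron genes differed between the MCD and chow libraries, where diet and sequencing set cannot be told apart. Of the 10 members, 6 were higher and 2 lower on MCD than on chow in WT mice, and 5 were higher and 3 lower in Pctp-/- mice (limma adjusted p under 0.05 over 12466 tested genes). Of all tested genes 57% also passed in WT mice, 34.5% upward and 22.5% downward. In Pctp-/- mice 50.3% passed, 26% upward and 24.4% downward. The members' share thus stood against a background in which about every other gene passed, and an excess over it was not tested. Diet groups did not overlap, in either direction, for 63.7% of all tested genes in WT and 59.7% in Pctp-/- mice. Their median difference was 0.54 in WT and 0.46 in Pctp-/- mice on the log2(FPKM + 1) scale, beside 0.11 and 0.04 over all tested genes. Genotype alone gave few calls: none of the 10 on chow, where 0.136% of all genes passed (0.0562% higher and 0.0802% lower in Pctp-/- mice), and Ftl1 alone on the MCD diet, where 0.818% passed (0.297% higher and 0.521% lower). The difference of the diet effects was called for none of the 10 and for 0.0963% of all genes (0.0401% upward and 0.0562% downward). The last count over all genes moved with single libraries, from 0 without Pctp-/- MCD replicate 2 to 15 higher and 45 lower without WT MCD replicate 3 and 25 higher and 35 lower without WT chow replicate 1. At an unadjusted limma p under 0.05, the 3 contrasts held 0, 3 and 1 members, beside 870, 2026 and 1884 of all 12466 genes. Without WT MCD replicate 1, 8 members passed for the diet in WT and 9 in Pctp-/- mice, and none passed for genotype on either diet. Without WT chow replicate 1 or without WT MCD replicate 2, 5 members passed for the diet in WT mice.

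**Figure D1:**
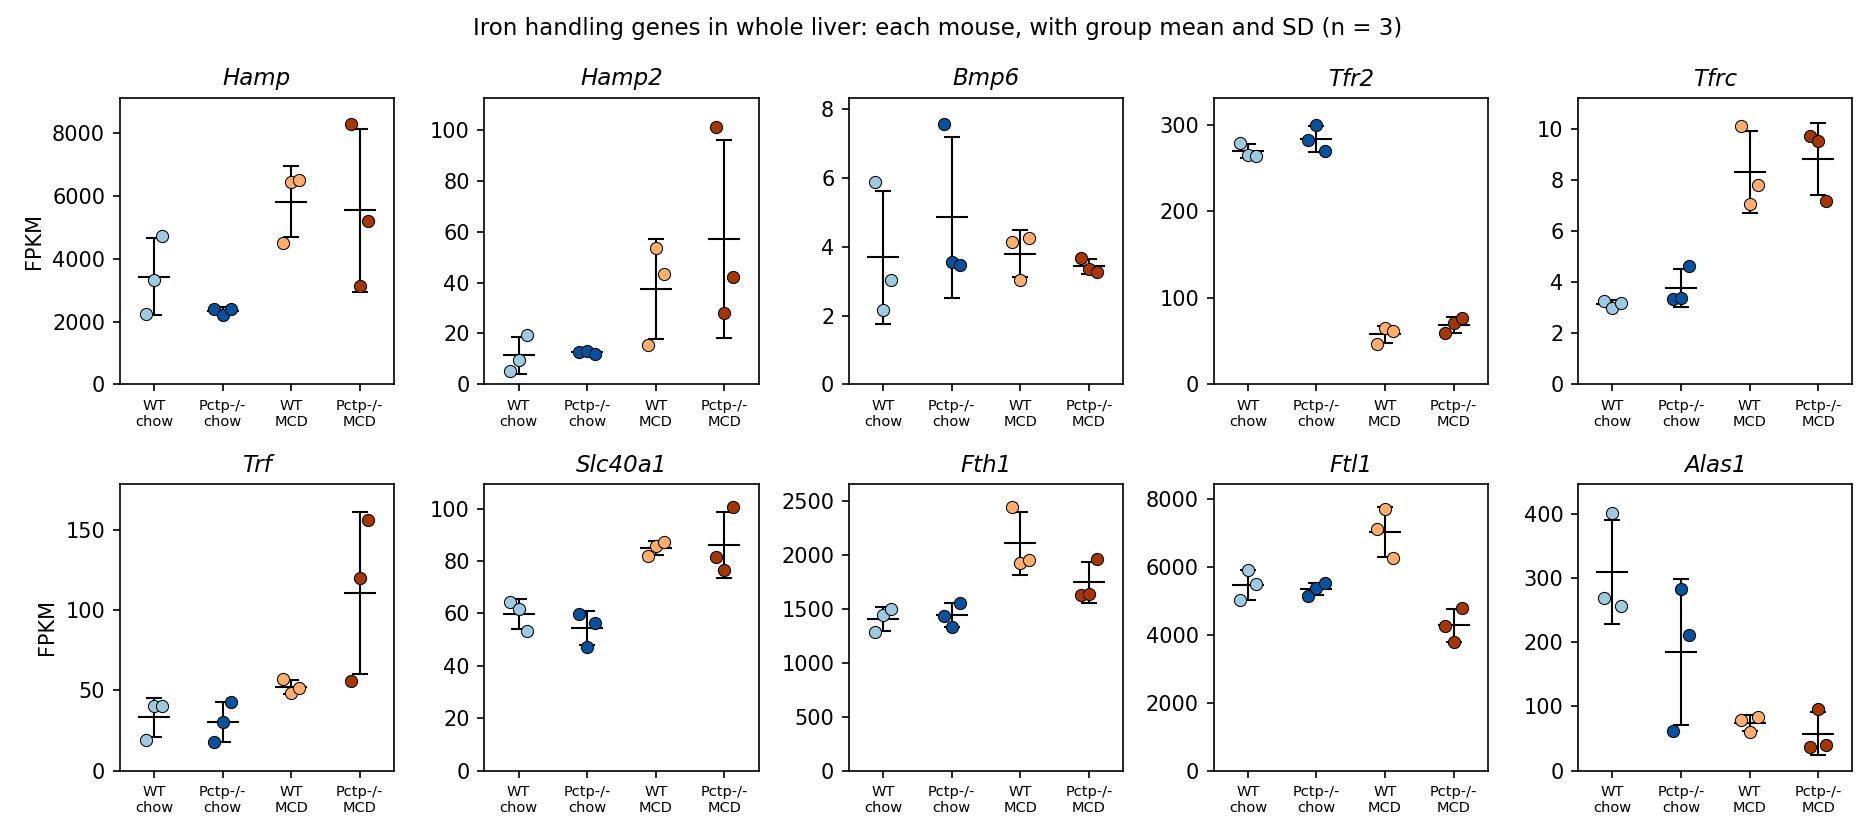
FPKM (vertical axis, linear, from 0) of each of the 10 genes in the 4 groups. Points are mice, bars the group mean and SD of 3 mice. Tfr2 lies between 264 and 299.7 FPKM in every chow library and at 77.1 FPKM or below in every MCD library, and Ftl1 is higher in WT MCD and lower in Pctp-/- MCD than in any chow library.

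Hamp, the hepcidin transcript, rose with the MCD diet. It stood at 2252, 3320.2 and 4711 FPKM in the WT chow mice and at 4514, 6441 and 6498 FPKM in the WT MCD mice. In Pctp-/- mice it stood at 2413, 2199 and 2390.5 FPKM on chow and at 8302, 3116 and 5209 FPKM on MCD. The WT groups overlapped, since the highest chow mouse lay above the lowest MCD mouse, and the Pctp-/- groups did not. Pctp-/- diet groups did not overlap for 59.7% of all tested genes. The group means were 1.70 times higher on MCD in WT and 2.37 times higher in Pctp-/- mice. On the log2(FPKM + 1) scale the differences were 0.81 ± 0.32 (SE, n = 3 a group, limma adjusted p = 0.0476) in WT and 1.14 ± 0.32 (limma adjusted p = 0.011) in Pctp-/- mice. The WT call was borderline: 10 of 22 other ways of processing kept it, with limma adjusted p from 0.0171 to 0.19, while the Pctp-/- call was kept by 22 of 22. It was lost without a filter on low values (0.122), under median-of-ratios scaling (0.122), with the replicate number as a block (0.0539) and in a robust fit (0.0548). Among single libraries, it was lost without WT chow replicate 1 (0.54, limma adjusted p = 0.19) or 2 (0.0923), WT MCD replicate 2 (0.122) or 3 (0.125), any Pctp-/- chow mouse (0.0563 to 0.059) or Pctp-/- MCD replicate 3 (0.0607). WT MCD replicate 1 was the lowest of its group, and without it the WT difference was 0.98 (limma adjusted p = 0.0381).

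Hamp2 rose with the diet as well. WT chow mice had 5.29, 9.40 and 19.5 FPKM and WT MCD mice 15.6, 53.4 and 43.4 FPKM. Pctp-/- mice had 12.9, 13.3 and 12.03 FPKM on chow and 101, 28.0 and 42.1 FPKM on MCD. As for Hamp, the WT groups overlapped and the Pctp-/- groups did not, as was so for 59.7% of all tested genes. The log2 differences were 1.64 ± 0.52 (SE, limma adjusted p = 0.018) in WT and 1.88 ± 0.52 (limma adjusted p = 0.0101) in Pctp-/- mice. The WT call was lost without WT chow replicate 1 (limma adjusted p = 0.0816), without WT MCD replicate 2 (0.0741) or without WT MCD replicate 3 (0.062).

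The level of Hamp2 relative to Hamp, per length, was low in every mouse. It was 0.235%, 0.283% and 0.413% of the Hamp FPKM in WT chow mice and 0.533%, 0.603% and 0.503% in Pctp-/- chow mice. On MCD it was 0.346%, 0.830% and 0.668% in WT and 1.22%, 0.900% and 0.807% in Pctp-/- mice. The Pctp-/- chow shares all lay above the WT chow shares, whereas on MCD the genotypes overlapped. These shares were not tested. The genotypes gave no called difference in either gene itself. On chow the Pctp-/- minus WT difference of Hamp was -0.49 (95% interval -1.19 to 0.21), and on MCD it was -0.16 (-0.86 to 0.54). The effect of the diet on Hamp differed between genotypes by 0.33 (-0.66 to 1.32), which leaves room for a sizeable difference either way.

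The tested genes whose pattern was most like Hamp over the 12 libraries, by Pearson correlation of log2(FPKM + 1), were Gm13203 (r = 0.946), Wdr93 (0.931), Zfp944 (0.921), Dut (0.912) and Gadd45a (0.906). Of these only Gadd45a exceeded 10 FPKM, ranging from 2.54 to 53.3 FPKM. Hamp2 correlated at 0.870, and at 0.927 once the group means were taken out, so the pair also moved together among mice of the same group. Some other genes did so as well. Without the group means, the genes above correlated with Hamp at 0.942, 0.818, 0.792, 0.836 and 0.734, in the order given. They were picked for high correlation with Hamp in these same libraries, so they do not show how usual the Hamp2 value is. These 12 points share the diet step, and the values are descriptions.

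Bmp6 (chr13:38345107-38500302, plus strand), the ligand that signals iron stores to hepatocytes and is made mainly by sinusoidal endothelial cells, did not pass the test. WT mice had 5.88, 2.17 and 3.02 FPKM on chow and 4.14, 3.03 and 4.25 FPKM on MCD. Pctp-/- mice had 7.57, 3.54 and 3.47 FPKM on chow and 3.66, 3.34 and 3.28 FPKM on MCD. The diet groups overlapped in both genotypes, and replicate 1 was the highest of each chow group. The intervals of the diet difference ran from -0.51 to 0.72 in WT and from -0.95 to 0.28 in Pctp-/- mice, which does not show that the level was the same. Bmp6 shares 3.58% of its 100-base windows with Txndc5 on the opposite strand, which stood at 75.1 to 112 FPKM. The 9 sinusoidal endothelial markers summed to 67.7 to 100.2 FPKM on chow and 86.8 to 123 FPKM on MCD.

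Tfr2 (chr5:137569840-137587481, plus strand), the hepatocyte receptor that senses transferrin-bound iron and feeds into hepcidin control, fell with the smallest adjusted p of the 10 genes in both genotypes. It stood at 279, 266 and 264 FPKM in WT chow mice and at 46.3, 65.2 and 61.6 FPKM in WT MCD mice. The Pctp-/- mice had 282, 299.7 and 270.1 FPKM on chow and 58.8, 71.2 and 77.1 FPKM on MCD. No MCD mouse of either genotype came near a chow mouse. Diets did not overlap for 63.7% of all tested genes in WT and 59.7% in Pctp-/- mice. The chow means were 4.67 times the MCD means in WT and 4.12 times in Pctp-/- mice, with log2 differences of -2.22 ± 0.13 (SE, limma adjusted p = 1.3e-07) and -2.03 ± 0.13 (limma adjusted p = 3.1e-07). On MCD, Pctp-/- mice differed from WT mice by 0.26 (95% interval -0.02 to 0.54, limma adjusted p = 0.34).

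The remaining genes of BMP and SMAD control of hepcidin gave a mixed picture. Of 21 tested list genes, Tfr2 and Bmp6 included, 6 were higher and 5 lower on MCD in WT mice. In Pctp-/- mice 7 were higher and 7 lower, and the medians were 0.02 in WT and -0.06 in Pctp-/- mice. Of all tested genes, 34.5% were higher and 22.5% lower in WT and 26% and 24.4% in Pctp-/- mice. Hjv, the BMP co-receptor hemojuvelin, rose by 1.27 ± 0.17 in WT mice (limma adjusted p = 6.5e-05), from 21.6, 21.7 and 29.1 FPKM to 63.1, 61.4 and 53.2 FPKM. Tmprss6, the protease matriptase-2 that cleaves hemojuvelin and so lowers hepcidin, fell by 1.13 in WT mice (SE 0.10, limma adjusted p = 2.6e-06), from 299.9 to 346 FPKM down to 131 to 158 FPKM. Id1, a target gene of BMP signalling, rose by 1.90 ± 0.51 in WT mice (limma adjusted p = 0.0072), where the diets overlapped, and by 1.54 ± 0.51 in Pctp-/- mice (limma adjusted p = 0.024). The latter call was lost in 3 of 22 other ways of processing (no filter on low values, without Pctp-/- chow replicate 2, without Pctp-/- MCD replicate 1), with a limma adjusted p of up to 0.0979. Smad7, an inhibitory SMAD that is itself such a target, fell by 1.24 in Pctp-/- mice (SE 0.19, limma adjusted p = 0.00026). Id1 and Smad7, targets of 1 pathway, thus moved in opposite directions in Pctp-/- mice. In the comparisons of genotype and in the difference of the diet effects, no gene of this list passed. That difference, Pctp-/- minus WT, ran from -0.57 to 0.28 over the list. By estimate Smad7 thus also fell in WT mice, and Hjv rose and Tmprss6 fell in Pctp-/- mice. Other BMP targets of the list are not given singly.

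The interleukin-6, STAT3 and acute phase list had 8 of 19 genes higher and 6 lower on MCD in WT mice. In Pctp-/- mice 8 were higher and 2 lower, and the medians were -0.02 in WT and -0.10 in Pctp-/- mice. The shares over all tested genes were 34.5% higher and 22.5% lower in WT and 26% and 24.4% in Pctp-/- mice. Lcn2, an iron-siderophore binding protein, differed by 5.66 ± 0.44 in WT and 4.81 ± 0.44 in Pctp-/- mice (limma adjusted p = 1e-06 and 4.8e-06). Apcs, serum amyloid P, differed by 5.37 ± 0.21 and 5.70 ± 0.21 (limma adjusted p = 7.1e-09 and 6.2e-09). Orm2, an acute phase orosomucoid, differed by 3.03 ± 0.35 and 2.13 ± 0.35 (limma adjusted p = 1.9e-05 and 0.00033). Without WT MCD replicate 1 the WT differences were 5.004 for Lcn2, 5.64 for Apcs and 2.54 for Orm2, and all 3 were still called. Saa1 and Saa2, the serum amyloid A genes, did not pass in either genotype. The neutrophil and monocyte markers moved with these genes: 4 of the 7 were tested and 4 of those 4 were higher on MCD in WT mice and 3 in Pctp-/- mice. Their sum was 0.494 to 4.04 FPKM on chow, 20.7 to 27.2 FPKM in WT MCD and 7.81 to 16.3 FPKM in Pctp-/- MCD mice, with Ly6g at 0 in every chow and WT MCD library. The part of such cells in the result was not tested.

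**Figure D2:**
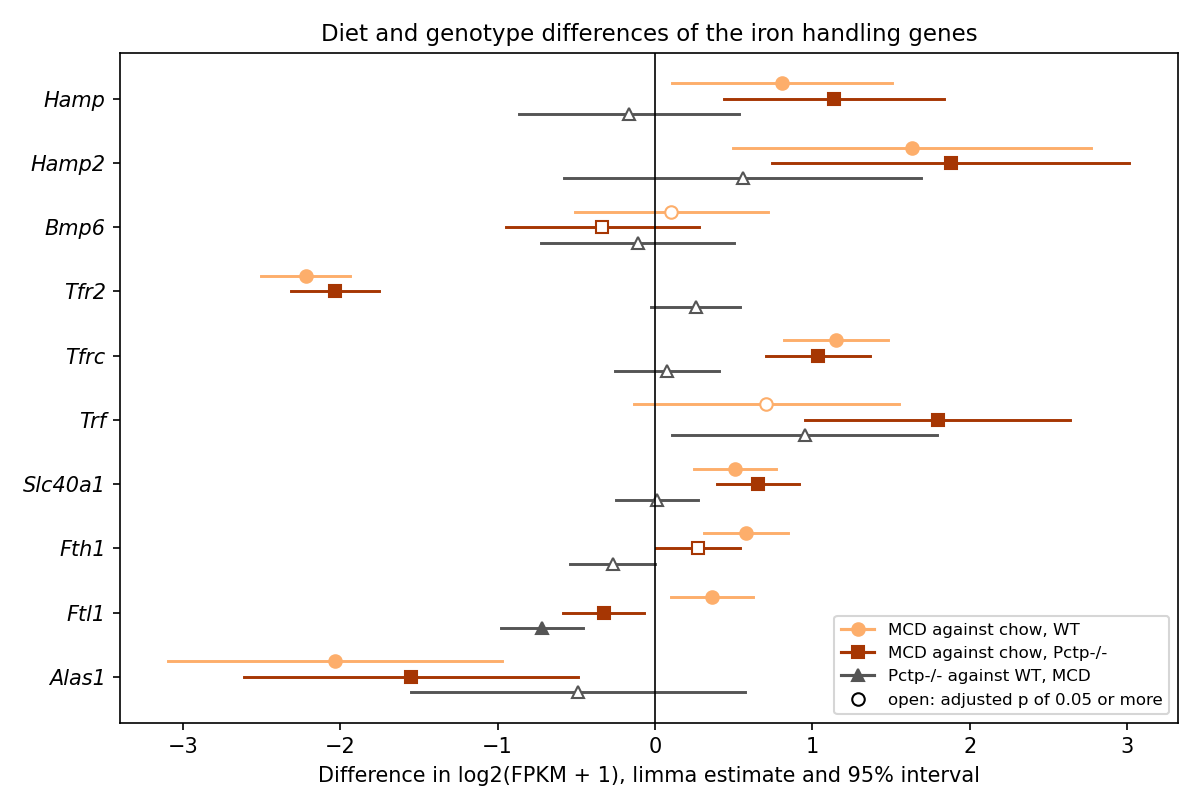
Difference in log2(FPKM + 1) of the 10 genes (horizontal axis) with its 95% interval, for MCD against chow in WT and in Pctp-/- mice and for Pctp-/- against WT mice on MCD; filled symbols passed at a limma adjusted p under 0.05. Ftl1 is the only gene with a filled symbol for genotype, at -0.72, and the only gene whose diet differences lie on opposite sides of 0 with both filled.

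On the uptake side, Tfrc (chr16:32608920-32632794, plus strand) encodes transferrin receptor 1, which carries transferrin iron into cells. It stood at 3.26, 3.01 and 3.20 FPKM in WT chow mice and 10.1, 7.05 and 7.81 FPKM in WT MCD mice. In Pctp-/- mice it stood at 3.33, 3.37 and 4.65 FPKM on chow and at 9.75, 9.53 and 7.20 FPKM on MCD. Every MCD mouse lay above every chow mouse of both genotypes. Diet groups did not overlap for 63.7% of all tested genes in WT and 59.7% in Pctp-/- mice. The differences were 1.15 ± 0.15 (SE, limma adjusted p = 5.4e-05) in WT and 1.04 ± 0.15 (limma adjusted p = 0.00015) in Pctp-/- mice, the reverse of the direction of Tfr2. The genotype intervals were -0.14 to 0.52 on chow and -0.25 to 0.41 on MCD. The chow genotypes did not overlap in Tfrc, as was so for 10.6% of all tested genes.

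Trf (chr9:103204001-103230444, minus strand) encodes transferrin, the plasma iron carrier made by hepatocytes. WT mice had 19.1, 40.5 and 40.1 FPKM on chow and 56.8, 48.5 and 51.4 FPKM on MCD. Pctp-/- mice had 17.8, 30.4 and 42.7 FPKM on chow and 56.1, 119.9 and 156 FPKM on MCD. The diet groups did not overlap in either genotype, which held for 63.7% of all tested genes in WT and 59.7% in Pctp-/- mice. The difference passed in Pctp-/- mice (1.80 ± 0.39, limma adjusted p = 0.0022) but not in WT mice (0.71 ± 0.39, limma adjusted p = 0.136), where it passed in a fit of the 6 WT libraries alone (0.0471). That does not show that the genotypes differed: the difference of the diet effects was 1.09 (95% interval -0.10 to 2.28, limma adjusted p = 0.372), and Pctp-/- MCD replicate 1 lay among the WT MCD mice. Of the 100-base windows of Trf, 77.3% also belong to the read-through gene Gm20425, which was listed at 0 in every library.

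Of 11 tested genes of iron uptake and reduction, 4 were higher and 4 lower on MCD in WT mice. In Pctp-/- mice 3 were higher and 3 lower, and the medians were -0.11 in WT and -0.14 in Pctp-/- mice. Over all tested genes, 34.5% were higher and 22.5% lower in WT and 26% and 24.4% in Pctp-/- mice. Lrp1, the receptor for hemopexin-bound heme among many other ligands, fell by 1.89 in WT and by 1.62 in Pctp-/- mice (SE 0.17 in both, limma adjusted p = 2.8e-06 and 1.2e-05). It went from 112 to 182 FPKM on chow to 33.8 to 48.1 FPKM on MCD.

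Slc40a1 (chr1:45908068-45926523, minus strand) encodes ferroportin, the cellular iron exporter that hepcidin degrades. It stood at 64.2, 61.7 and 53.4 FPKM in WT chow mice and 82.1, 85.9 and 87.2 FPKM in WT MCD mice. Among Pctp-/- mice it stood at 59.6, 47.2 and 56.3 FPKM on chow and at 81.6, 76.7 and 101 FPKM on MCD. All MCD mice lay above all chow mice. Diets did not overlap for 63.7% of all tested genes in WT and 59.7% in Pctp-/- mice. The transcripts of hepcidin and of its target were both higher on MCD, though the WT diets overlapped in Hamp and its WT call was borderline. The differences of Slc40a1 were 0.51 ± 0.12 (SE, limma adjusted p = 0.0033) in WT and 0.65 ± 0.12 (limma adjusted p = 0.00075) in Pctp-/- mice. For Slc40a1, 22 of 22 other ways of processing kept both calls. On MCD the genotypes differed by 0.01 (95% interval -0.25 to 0.27). Kupffer cells also express ferroportin, and their 11 markers summed to 114 to 213 FPKM in WT chow, 119.7 to 300.3 FPKM in Pctp-/- chow, 294 to 477 FPKM in WT MCD and 255 to 271 FPKM in Pctp-/- MCD mice. Of these markers 10 of 11 were higher on MCD in WT and 3 of 11 in Pctp-/- mice. Higher on MCD were 34.5% of all tested genes in WT and 26% in Pctp-/- mice. The markers' part in the result was not tested.

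Ferritin stores iron in a shell of heavy chains, which oxidise iron, and light chains, which help it mineralise. Fth1, the heavy chain (chr19:9980598-9985098, plus strand), stood at 1283, 1439.8 and 1496 FPKM in WT chow mice and 2445, 1922 and 1954 FPKM in WT MCD mice. Among Pctp-/- mice it was at 1433, 1334 and 1557 FPKM on chow and 1631, 1637 and 1964 FPKM on MCD. Of all tested genes, 63.7% in WT and 59.7% in Pctp-/- mice had diets that did not overlap. In Fth1, MCD mice lay above chow mice of the same genotype without overlap. The difference passed in WT mice (0.58 ± 0.12, SE, limma adjusted p = 0.0017) and not in Pctp-/- mice (0.27 ± 0.12, limma adjusted p = 0.084), and the difference of the diet effects was -0.30 (95% interval -0.68 to 0.07, limma adjusted p = 0.434). The Pctp-/- difference passed under quantile normalization (0.53, limma adjusted p = 0.0011) and without WT MCD replicate 1 (0.27, limma adjusted p = 0.0465).

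Ftl1, the light chain (chr7:45457944-45459884, minus strand), was the only gene of the 10 called between the genotypes. WT mice had 5014, 5897 and 5496 FPKM on chow and 7114, 7715 and 6268 FPKM on MCD. Pctp-/- mice had 5143, 5382 and 5517 FPKM on chow and 4265, 3800.2 and 4777 FPKM on MCD. On MCD every WT mouse lay above, and every Pctp-/- mouse below, all 6 chow mice. Genotypes on MCD did not overlap for 26.6% of all tested genes, and how many of them showed the full pattern was not counted. On the MCD diet the Pctp-/- mice were lower by -0.72 ± 0.12 (SE, n = 3 a group, limma adjusted p = 0.0189), with group means of 4281 ± 488 against 7032 ± 727 FPKM (SD). The diet difference was 0.36 ± 0.12 in WT mice (limma adjusted p = 0.0214) and -0.33 ± 0.12 in Pctp-/- mice (limma adjusted p = 0.0378). On chow the genotypes differed by -0.03 (95% interval -0.29 to 0.23).

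The difference of the diet effects of Ftl1, Pctp-/- minus WT, was -0.69 (95% interval -1.05 to -0.32), and it did not pass over all tested genes (limma adjusted p = 0.126). The genotype call on MCD was kept by 16 of 22 other ways of processing, with differences from -0.80 to -0.61 and limma adjusted p from 0.0093 to 0.167. It was lost under median-of-ratios scaling (-0.61, limma adjusted p = 0.119), without a filter on low values (0.167) and in a fit of the 6 MCD libraries alone (0.116). It was also lost without WT MCD replicate 1 (-0.71, limma adjusted p = 0.0513), WT MCD replicate 2 (-0.65, 0.0937) or Pctp-/- MCD replicate 2 (-0.63, 0.096). The diet calls were kept by 16 of 22 in WT and 14 of 22 in Pctp-/- mice. The WT diet difference shrank to 0.07 under quantile normalization (limma adjusted p = 0.61) and to 0.22 under median-of-ratios scaling (0.237), and it was also lost without a filter (0.197), in a fit of 6 libraries (0.0928) and without WT chow replicate 1 (0.063) or WT MCD replicate 2 (0.0862). The Pctp-/- diet difference was lost without a filter (0.266), under median-of-ratios scaling (0.0564), without WT chow replicate 3 (0.0501), Pctp-/- chow replicate 1, 2 or 3 (0.0634, 0.0946 and 0.102) and Pctp-/- MCD replicate 1 or 2 (0.0805 and 0.15).

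Ftl1 values also carry an uncertainty from gene copies, since 78.6% of its 869 windows of 100 bases occur in other annotated genes. The 3 listed copies Ftl1-ps1, Gm15590 and Ftl2-ps together stood at 0.524% to 2.01% of the Ftl1 FPKM, and how reads with several matches were counted is not given in the sources used here. The Kupffer cell marker sum on MCD was 294 to 477 FPKM in WT and 255 to 271 FPKM in Pctp-/- mice. The median genotype difference of these markers was -0.51, with 0 of 11 past the threshold and 1 at an unadjusted limma p under 0.05. Between the diets their median was 1.22 in WT mice, where Ftl1 was higher on MCD. In Pctp-/- mice, where Ftl1 was lower on MCD, the markers had a diet median of 0.37, with 3 higher and 0 lower. Their part in the result was not tested.

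**Figure D3:**
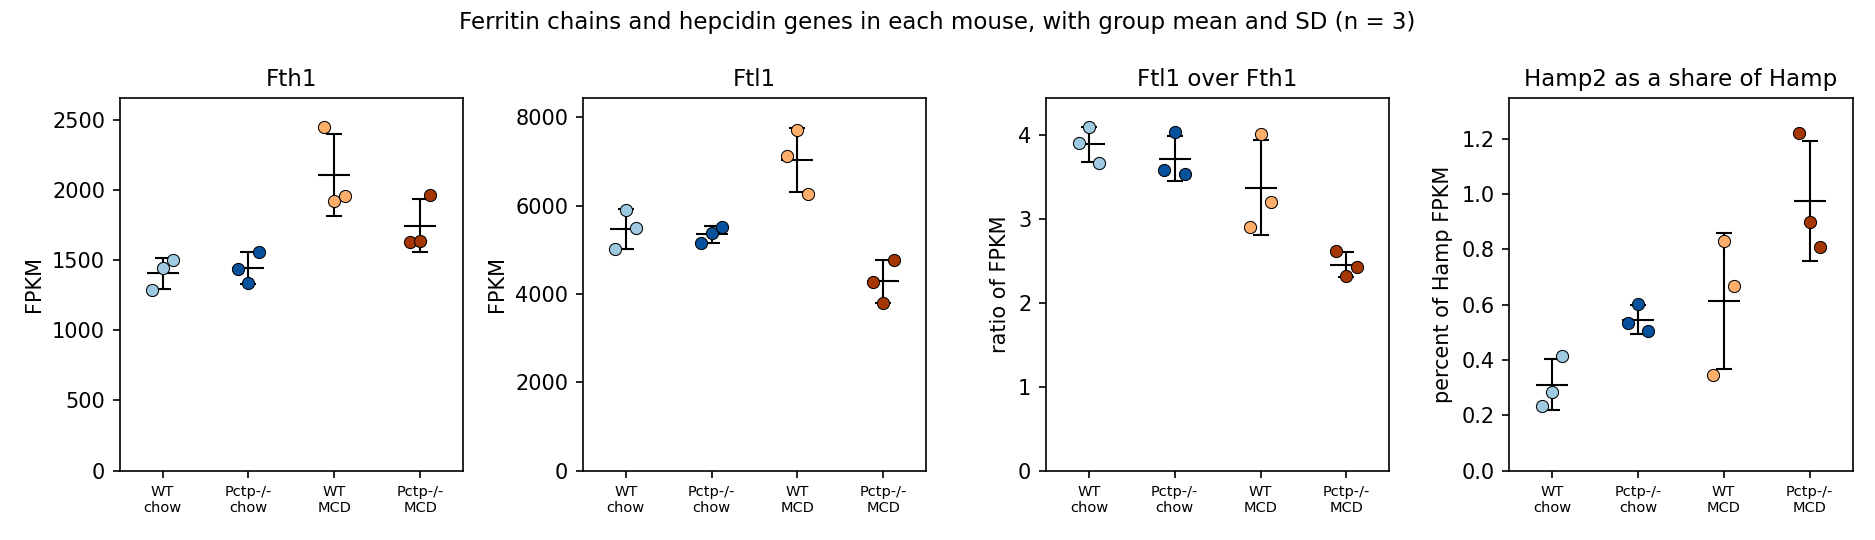
Fth1 and Ftl1 (FPKM), the ratio of Ftl1 to Fth1, and Hamp2 as a percentage of Hamp, in each mouse (points) with group mean and SD of 3 mice (bars); all vertical axes are linear and start at 0. The 3 Pctp-/- MCD mice have Ftl1 over Fth1 ratios of 2.32 to 2.61, below all 9 other mice.

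The ratio of light to heavy chain, which is not changed by a scale factor of the library, was lowest in the Pctp-/- MCD mice. It was 3.91, 4.10 and 3.67 in WT chow mice, 3.59, 4.03 and 3.54 in Pctp-/- chow mice and 2.91, 4.01 and 3.21 in WT MCD mice. In Pctp-/- MCD mice it was 2.61, 2.32 and 2.43. WT MCD replicates 1 and 3 also lay below every chow mouse, and the ratios were not tested. A ratio within a library shows unequal change of the chains and not which of them changed.

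Of the 11 tested genes of iron storage, release and export, 4 were higher and 2 lower on MCD in WT mice. In Pctp-/- mice 3 were higher and 3 lower, and the medians were 0.20 in WT and 0.11 in Pctp-/- mice. Over all tested genes, 34.5% were higher and 22.5% lower in WT and 26% and 24.4% in Pctp-/- mice. Fbxl5, the iron-sensing subunit of the ligase that removes iron regulatory protein 2, rose by 0.89 ± 0.13 in WT and by 0.71 ± 0.13 in Pctp-/- mice (limma adjusted p = 0.00011 and 0.0007). Aco1, iron regulatory protein 1, fell by 0.53 in WT mice (SE 0.11, limma adjusted p = 0.0013). Pcbp1, an iron chaperone that loads ferritin and also an RNA-binding protein, fell by 0.95 in Pctp-/- mice (SE 0.13, limma adjusted p = 0.00011). The difference of the diet effects ran from -0.69 to 0.22 over the list, with none called. Aco1 and Pcbp1 thus lay lower on MCD in both genotypes by estimate.

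Across the 8 tested genes whose mRNAs carry an iron responsive element, 5 were higher and 1 lower on MCD in WT mice. In Pctp-/- mice 2 were higher and 2 lower, and the medians were 0.43 in WT and 0.19 in Pctp-/- mice. Of all tested genes, 34.5% were higher and 22.5% lower in WT and 26% and 24.4% in Pctp-/- mice. This list shares Tfrc, Fth1, Ftl1 and Slc40a1 with the 10 genes above. Of the others, Slc11a2, the iron importer DMT1, rose by 0.69 ± 0.12 in WT mice (limma adjusted p = 0.0005). Epas1, the hypoxia factor HIF-2α, fell by 0.98 in WT and by 0.46 in Pctp-/- mice (SE 0.12 in both, limma adjusted p = 2.7e-05 and 0.0063). No gene of this list passed for the difference of the diet effects.

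Alas1 (chr9:106233455-106248654, minus strand) encodes the rate-limiting enzyme of heme synthesis in the liver. It stood at 268, 401 and 256 FPKM in WT chow mice and at 79.0, 60.2 and 82.8 FPKM in WT MCD mice. Pctp-/- mice had 60.7, 283 and 211 FPKM on chow and 36.5, 95.8 and 39.7 FPKM on MCD. The WT groups were far apart, while Pctp-/- chow replicate 1 lay within the MCD range. Of all tested genes, 63.7% had WT diet groups that did not overlap. The differences were -2.03 ± 0.49 (SE, limma adjusted p = 0.0036) in WT and -1.55 ± 0.49 (limma adjusted p = 0.019) in Pctp-/- mice. The WT call was kept by 22 of 22 other ways of processing and the Pctp-/- call by 16. The latter was lost without Pctp-/- chow replicate 2 (-1.11, limma adjusted p = 0.0863) or 3 (-1.32, 0.068), without Pctp-/- MCD replicate 1 (-1.30, 0.075) or 3 (-1.36, 0.0686), without a filter on low values (0.0501) and in a fit of 6 libraries (0.0673). On chow, Pctp-/- mice differed from WT mice by -0.97 (95% interval -2.03 to 0.09, limma adjusted p = 0.75). Without Pctp-/- chow replicate 1 that difference was -0.31, and the diet difference in Pctp-/- mice was -2.21.

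Of 13 tested genes of the heme synthesis list, 1 was higher and 4 lower on MCD in WT mice and 1 was higher and 8 lower in Pctp-/- mice, with medians of -0.19 and -0.38. Over all tested genes, 34.5% were higher and 22.5% lower in WT and 26% higher and 24.4% lower in Pctp-/- mice, and the list's shares were not tested against these. Abcb10, a mitochondrial transporter needed for heme synthesis, fell by 1.32 in WT and by 1.44 in Pctp-/- mice (SE 0.11 in both, limma adjusted p = 1.7e-06 and 1.1e-06), from 13.5 to 17.5 FPKM on chow to 4.60 to 5.54 FPKM on MCD. Ppox, the oxidase that makes protoporphyrin, fell by 0.77 and by 0.78 (SE 0.19, limma adjusted p = 0.0043 and 0.0046). Uros, uroporphyrinogen III synthase, fell by 0.53 in Pctp-/- mice (SE 0.14, limma adjusted p = 0.0077). The difference of the diet effects ran from -0.39 to 0.48 over the list, with none called. Uros was thus also lower on MCD in WT mice by estimate. Erythroid markers, which include the erythroid isoform Alas2, summed to 254 to 761 FPKM on chow and 209 to 277 FPKM on MCD. Of the 5 tested erythroid markers 2 were lower on MCD in each genotype, and their part in the heme genes' result was not tested.

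Of the heme breakdown and scavenging list, heme oxygenase 1 and hemopexin rose on the MCD diet, while Lrp1, given above, fell in both genotypes. Of 8 tested genes, 4 were higher and 2 lower on MCD in each genotype, with medians of 0.43 in WT and 0.20 in Pctp-/- mice. The shares over all tested genes were 34.5% higher and 22.5% lower in WT and 26% and 24.4% in Pctp-/- mice. Hmox1, heme oxygenase 1, which opens heme and frees its iron, stood at 15.7, 10.2 and 12.96 FPKM in WT chow mice and 61.4, 43.5 and 40.8 FPKM in WT MCD mice. In Pctp-/- mice it stood at 18.01, 7.93 and 13.99 FPKM on chow and 27.4, 30.1 and 30.5 FPKM on MCD. MCD lay above chow without overlap in both genotypes, with differences of 1.83 ± 0.24 (limma adjusted p = 6.1e-05) and 1.15 ± 0.24 (limma adjusted p = 0.002). Diets did not overlap for 63.7% of all tested genes in WT and 59.7% in Pctp-/- mice. On MCD the Pctp-/- mice lay below the WT mice without overlap. Genotypes on MCD did not overlap for 26.6% of all tested genes, in either direction, and the difference of Hmox1 did not pass (-0.69, limma adjusted p = 0.19). Hpx, the plasma heme carrier hemopexin, rose by 1.23 ± 0.11 and by 1.14 ± 0.11 (limma adjusted p = 3.6e-06 and 8.6e-06).

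Of 14 tested genes of iron-sulfur cluster assembly, 6 were higher and 1 lower in WT and 4 were higher and 4 lower in Pctp-/- mice, with medians of 0.26 and 0.07. The called share of all tested genes was 57% in WT and 50.3% in Pctp-/- mice, and the list's shares were not tested against it. Hspa9, the mitochondrial chaperone that hands on clusters, rose by 0.87 ± 0.09 and by 0.81 ± 0.09 (limma adjusted p = 6.1e-06 and 1.4e-05). Isca1, a carrier of clusters, rose by 0.56 ± 0.09 in WT mice (limma adjusted p = 0.00017). Fdxr, which feeds electrons to cluster assembly, fell by 0.63 and by 0.69 (SE 0.15, limma adjusted p = 0.0029 and 0.002). Glrx5, the glutaredoxin that passes clusters on, fell by 0.61 in Pctp-/- mice (SE 0.09, limma adjusted p = 0.00019). For the difference of the diet effects no gene of this list passed. Whether any list's share differed between genotypes was not tested.

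**Figure D4:**
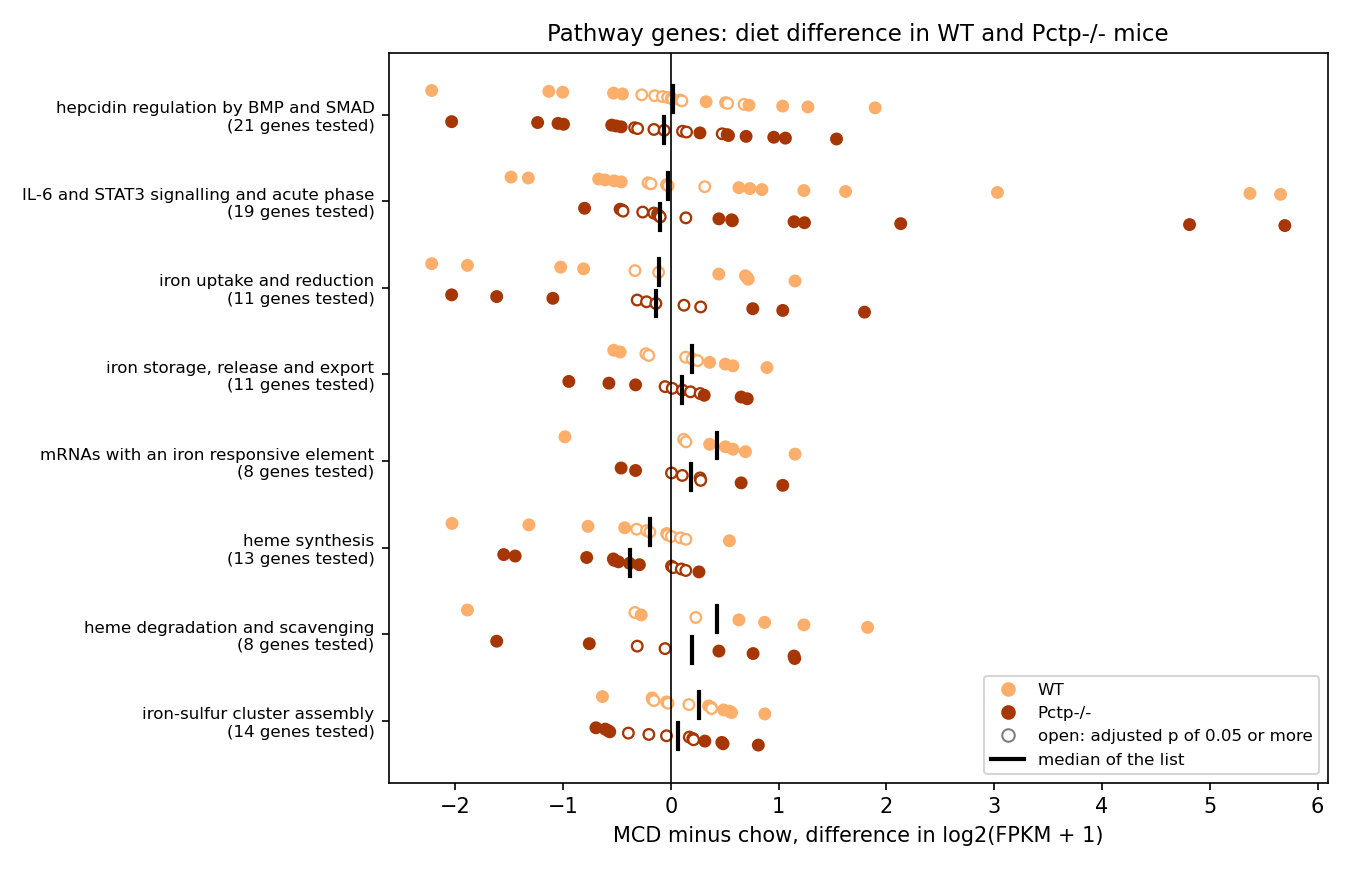
Difference in log2(FPKM + 1) between MCD and chow (horizontal axis) for every tested gene of 8 pathway lists, WT above and Pctp-/- below in each row; filled points passed at a limma adjusted p under 0.05 and black bars mark list medians. Heme synthesis has the lowest medians, -0.19 in WT and -0.38 in Pctp-/- mice, and the largest points to the right are Lcn2 and Apcs of the acute phase list.

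Per length, the transcript levels of the 10 genes spanned more than 3 orders of magnitude, from Tfrc and Bmp6 to Ftl1 and Hamp. In WT chow mice the order by mean FPKM was Ftl1, Hamp, Fth1, Alas1, Tfr2, Slc40a1, Trf, Hamp2, Bmp6 and Tfrc. The neighbours Alas1 and Tfr2, Trf and Hamp2, Hamp2 and Bmp6, and Bmp6 and Tfrc overlapped between mice. In Pctp-/- chow mice the order was the same except that Tfr2 came before Alas1, and only that pair and Bmp6 with Tfrc overlapped. In WT MCD mice Ftl1 and Hamp overlapped, and Slc40a1, Alas1, Tfr2, Trf and Hamp2 formed a run in which each overlapped the next, with Bmp6 last. In Pctp-/- MCD mice Hamp had the highest mean, at 5543 ± 2609 FPKM (SD), and overlapped Ftl1. Tfr2, which overlapped Alas1 on chow, lay below Slc40a1 in the order of means on MCD in both genotypes.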

How the data were processed

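RNA was measured by RNA-seq in whole livers of 12 male mice, 3 in each of 4 groups of genotype and diet, and samples were grouped by the submitters' labels, which call replicates biological. The authors deposited FPKM per gene and library, and a table of other sequencing measures (read totals, mapping, error and GC percentages, read here for depth). The submitters' processing notes name mm10; the aligner, counter, annotation and strand setting are not given in the sources used here, and neither file holds the authors' comparisons.

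FPKM columns were used as deposited. Tests covered 12466 of 35275 genes, those whose FPKM averaged 0.5 or more, while 12879 were 0 throughout. limma 3.58.1 (R 4.3.3), with a mean-variance trend, modelled log2(FPKM + 1) by the 4 group means over the 12 libraries. The contrasts were the diet in each genotype, the genotype on each diet and the difference of the diet effects, two-sided. Genes were called at a Benjamini-Hochberg adjusted p under 0.05 over all tested genes with no minimum fold. Intervals are 95% intervals of that model. The pseudocount understates changes of low genes such as Tfrc, Bmp6 and Hamp2. FPKM is not a count, so no count test was run, and the depth per gene was not recovered. The fit was tested on simulated data.

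The 10 genes and the pathway and marker lists were chosen with earlier results of these data known. Beside the 10, the genes named are the 3 of each list with the largest called, non-overlapping diet difference in each genotype, all list genes called in the other contrasts, and the 5 genes most correlated with Hamp; Saa1, Saa2, Gm44662, the copies of Ftl1 and the genes of the library check were named after their values were seen, as was Hmox1 in the genotype comparison. Symbols and positions come from GENCODE M21 (GRCm38), which named 34490 of the IDs. Promoters come from RefSeq; proteins were not used here.

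Alternatives were other pseudocounts (0.1 and 0.5), no filter or a mean FPKM of at least 5, quantile normalization, median-of-ratios scaling, a replicate block, no trend, a robust fit, only the 6 libraries compared, and each library left out in turn.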

Additional observations from a re-analysis of the deposited data

Results flagged for a closer look

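Ftl1 was set aside because its diet difference went opposite ways in the genotypes in every mouse: all 3 WT MCD mice lay above, and all 3 Pctp-/- MCD mice below, the 3 chow mice of their genotype. How many of all tested genes show this pattern was not counted. The difference of the diet effects, Pctp-/- minus WT, was -0.69 on the log2(FPKM + 1) scale (95% interval -1.05 to -0.32). Under limma it did not pass over 12466 genes (adjusted p = 0.126), and over 21 other ways of processing the adjusted p ran from 0.0712 to 0.397 with the sign kept. Reads shared with copies of the gene and the marker sums given above were not tested as a part of it.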

How the results depend on the processing

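Without WT chow replicate 1 or without WT MCD replicate 2, 5 of the 10 members passed for the diet in WT mice instead of 8, and leaving out single libraries gave 5 to 8. In Pctp-/- mice the count stayed between 6 and 9 in every alternative. For genotype on MCD the count of 1, Ftl1, fell to 0 with no filter on low values, under median-of-ratios scaling and with only the 6 libraries compared, and leaving out single libraries gave 0 to 1. On chow and for the difference of the diet effects the count was 0 throughout, with 0 and 1 members at an unadjusted limma p under 0.05. Median-of-ratios scaling moved the median of all tested genes in the WT diet contrast from 0.11 to -0.0013 and the calls from 4300 higher and 2810 lower to 3546 and 3527.

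Of 1085 refitted differences of members, 1019 kept direction and call, 41 lost the call, 4 gained it and 21 changed sign. Bmp6 for the diet in WT was -0.0035 under median-of-ratios scaling and ran from -0.14 to 0.42 with single libraries left out. The other sign changes, all of differences that had not passed, came only from leaving out single libraries. For genotype on chow they gave -0.091 to 0.76 for Hamp2, -0.48 to 0.19 for Trf, -0.029 to 0.090 for Fth1 and -0.091 to 0.026 for Ftl1. For genotype on MCD they gave -0.51 to 0.20 for Hamp, -0.021 to 0.21 for Tfrc and -0.10 to 0.090 for Slc40a1. For the difference of the diet effects they gave -0.019 to 0.69 for Hamp, -0.28 to 0.65 for Hamp2, -0.21 to 0.019 for Tfrc and -0.18 to 0.92 for Alas1. The causes were not tested.

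Replicate numbers are shared between groups but number different mice. Same-numbered libraries correlated at -0.0972 to 0.225 about the group means, 8 of 18 pairs over 0.1, and 9 of 12 libraries correlated best with their own number, which is a hint from the data only. With the replicate number as a block, 8 members passed for the diet in WT, 8 in Pctp-/- mice, 0 for genotype on chow, 1 on MCD and 0 for the difference; Hamp in WT was then at limma adjusted p = 0.0539 and Trf in WT at 0.0361. FPKM gives no counts, so depth limits cannot be set per gene.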
